A study of Rattus norvegicus with 16 samples.

Results

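Smooth muscle cells and pericytes are the contractile cells of the vessel wall, and they make up a small part of the RNA of a whole skeletal muscle. Their markers were read here in rat extraocular muscle (EOM), the muscles that move the eye, and in another rat skeletal muscle that the labels call TA. The markers are 6 of the 4737 genes that have a probe set of their own on the array: Myh11, Acta2, Tagln, Cald1, Cnn1 and Cspg4. Every probe set whose only gene symbol in the platform's probe table is one of these was taken, which gave 11 of the 8799 probe sets on the array. Myh11 and Acta2 have 3 each, Tagln has 2, and Cald1, Cnn1 and Cspg4 have 1 each. Each probe set was read on its own. Of the 11, 10 passed the filter on low intensities and were tested.

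The 16 arrays form 3 groups of total RNA from rat muscle. EOM has 4 arrays with no collection time in the labels, TA_6h has 8 TA arrays with a collection time of 6 hours, and TA_1h has 4 TA arrays with a collection time of 1 hour. From which event the hours count is not stated, and the labels used here name no strain, age or treatment and do not say whether animals were pooled. TA arrays carry a number and, except 2 TA_6h arrays, the letter a or b. The log2 values of arrays with the same group and number were averaged into 1 sample, so EOM and TA_6h have 4 numbered samples each and TA_1h has 2. Arrays TA_6h 1 and 2, which have no letter, were joined with 1b and 2b by inference. No label says that a number is an animal, and the spread behind every p-value may therefore be technical.

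Smooth muscle contracts when its own myosin heavy chain, Myh11, pulls on filaments of smooth muscle actin, Acta2. Tagln (transgelin), Cald1 (caldesmon) and Cnn1 (calponin) bind those actin filaments, and caldesmon and calponin restrain the myosin. Cspg4, also called NG2, is a proteoglycan on the surface of pericytes, the cells that wrap capillaries, and is also found on other immature cells. Transcription of the contractile genes is known to depend on serum response factor, which binds a short element called the CArG box. Mature skeletal muscle fibres use other myosins and actins, so these markers are commonly read as a sign of the vessel wall. In whole muscle, fewer cells of a type and less RNA per cell cannot be told apart.

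The promoter of Acta2 and both promoters of Cald1, the genes of the 2 largest differences between EOM and TA_6h described further on, are shown for the CArG boxes they hold. The sequences are from RefSeq on the rat build GRCr8, 250 bases before a transcription start, in the direction of the gene. The table held promoters of 4 of the 6 genes, in 5 windows. A CArG box was searched as CC, 6 central bases of A or T, and GG, with at most 1 central base that is neither. The reverse complement of such a box is again a box, so 1 search covers both strands, and no other motif was searched. Capitals mark the boxes.
Acta2, chr1:241172504-241172753, minus strand: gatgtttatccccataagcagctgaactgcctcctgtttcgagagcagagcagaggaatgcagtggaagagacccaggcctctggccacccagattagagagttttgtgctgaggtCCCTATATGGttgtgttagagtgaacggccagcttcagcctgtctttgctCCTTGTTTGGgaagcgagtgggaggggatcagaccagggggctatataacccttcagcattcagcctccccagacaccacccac
Cald1, chr4:64233006-64233255, plus strand: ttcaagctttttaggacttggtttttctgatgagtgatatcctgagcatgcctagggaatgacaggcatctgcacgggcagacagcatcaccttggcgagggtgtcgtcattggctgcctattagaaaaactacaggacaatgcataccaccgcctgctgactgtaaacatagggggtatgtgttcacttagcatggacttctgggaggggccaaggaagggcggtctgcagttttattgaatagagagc
Cald1, chr4:64343465-64343714, plus strand: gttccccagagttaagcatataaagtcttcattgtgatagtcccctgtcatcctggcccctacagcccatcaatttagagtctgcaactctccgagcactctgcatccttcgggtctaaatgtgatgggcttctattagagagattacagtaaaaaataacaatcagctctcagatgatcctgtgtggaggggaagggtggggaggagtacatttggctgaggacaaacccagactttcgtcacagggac
The Acta2 window holds 2 boxes, CCCTATATGG at 134 to 125 bases before the start and CCTTGTTTGG at 84 to 75 bases before it, each with 1 central base off. The 2 Cald1 windows and the windows of Cnn1 and Cspg4 hold no box in these letters. Of 33469 windows of the same length, 8.08% hold at least 1 box and 0.693% at least 2. A match is a description of the letters and not a bound site.

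Intensities are on a linear scale, and probe sets differ in how they bind, so levels were compared only between arrays. In the EOM columns 24.3% of the intensities lie below 0, while no TA intensity does. Muscle and the step that summarised the probes therefore cannot be told apart in any EOM comparison. Values under 56.5, the 25th percentile of all intensities, were raised to that floor before log2 was taken. Intensities of probes against the middle and the 3′ end of beta-actin stood in a ratio of 0.146 to 0.390 on 5 TA arrays, namely both arrays of TA_6h samples 3 and 4 and array 2b of TA_1h, called the low-ratio arrays here. The remaining 7 TA arrays had ratios from 0.815 to 1.28, and EOM arrays from 0.891 to 0.978. These 7 were not uniform in the Gapdh control, whose middle over 3′ ratio was 0.161 to 0.399, with a middle intensity of 856 to 2184, on TA_6h 1b and 2b and TA_1h 1a and 2a. It lay between 0.788 and 1.52 on the rest of the TA arrays and between 0.882 and 0.928 on EOM arrays. The muscle labels were read against skeletal genes. Myh13, the extraocular myosin, was 36.2-fold higher in EOM than in TA_6h on the floored log2 scale (limma adjusted p = 1.89e-06). Its mean intensities were 7677 ± 346 (SD, n = 4) and 240 ± 98.2. Fast skeletal troponin T, Tnnt3, was at 18293 ± 2864 in EOM and 20090 ± 5623 in TA_6h. Ckm, muscle creatine kinase, was above the floor on all 4 EOM arrays but on 5 of the 8 TA_6h and 3 of the 4 TA_1h arrays.

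The first comparison asks how these markers differ between EOM and TA muscle of the 6-hour collection. Cald1, a Myh11 probe set, 2 of the 3 Acta2 probe sets and a Tagln probe set were higher in EOM, by 2.19- to 11.3-fold on the floored log2 scale. Cspg4, Cnn1 and the other Tagln probe set were lower. Calls are at a limma adjusted p under 0.05 over all 7640 tested probe sets. Among the 10 tested marker probe sets 8 were called, 5 of them higher in EOM and 3 lower. Cnn1 passed the filter through the TA arrays alone, so it had to be lower in EOM, and without it 7 of 9 were called, 5 higher and 2 lower. Over all tested probe sets 47.2% were called, 21.9% higher and 25.3% lower, so being called is common in this comparison. The median difference, EOM minus TA_6h, was 0.89 (log2) over the 10 and -0.11 over all tested. On 6 of the 10 the intensities of EOM and TA_6h arrays did not overlap, as they did not on 40.8% of all tested probe sets. Cnn1 is among the 6. All its EOM values lie below 0, where no TA intensity lies, so it could not overlap.

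**Figure D1:**
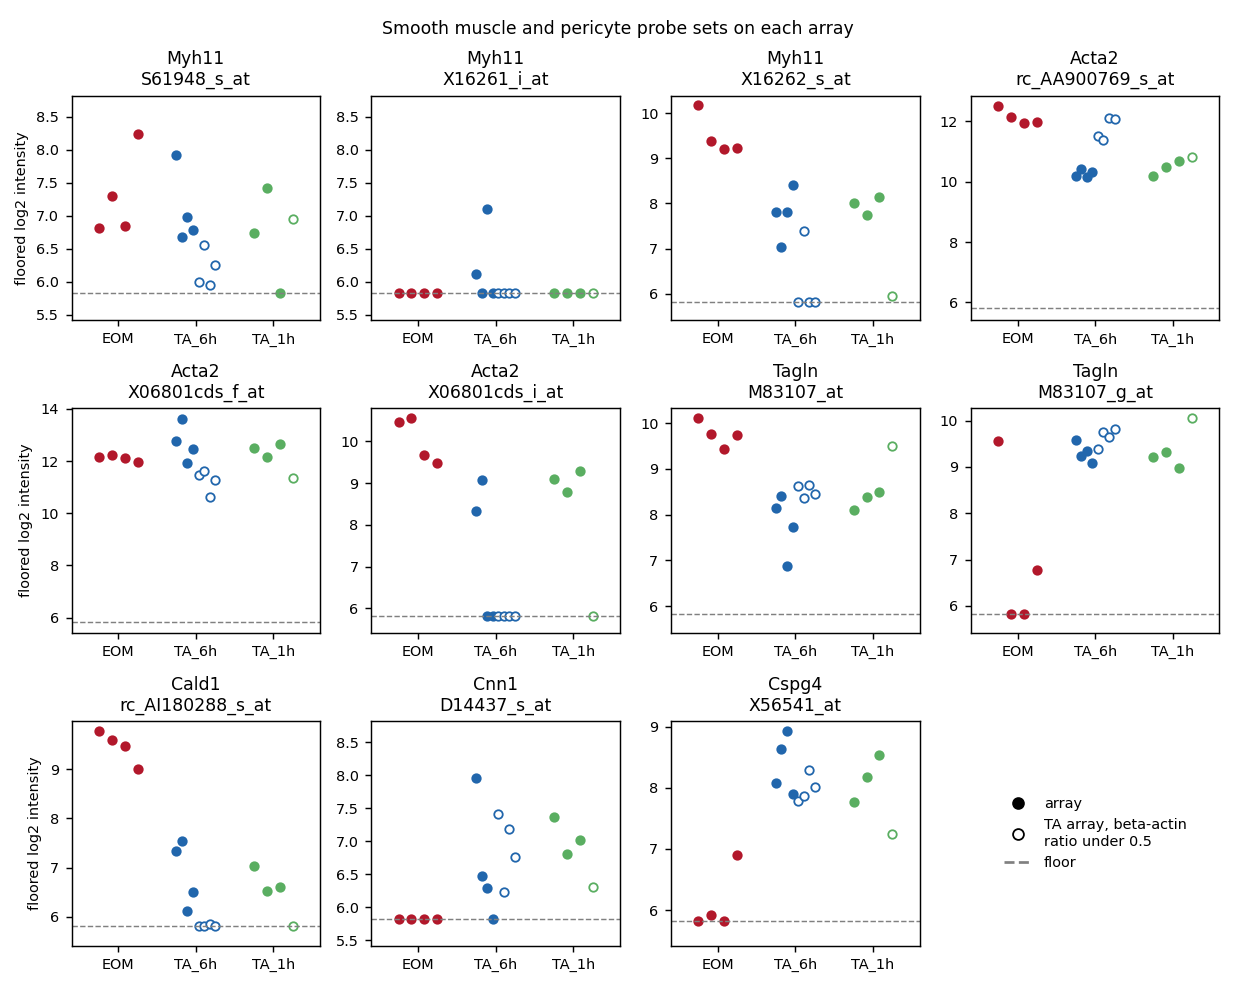
Each panel shows 1 of the 11 probe sets, with 1 point per array in EOM (4 arrays), TA_6h (8) and TA_1h (4), as log2 of the intensity with values under 56.5 raised to that floor (dashed line). Open points are the 5 low-ratio arrays. Cald1 is higher on every EOM array than on every TA array, and Cnn1 lies at the floor on all 4 EOM arrays.

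Myh11 encodes the motor of smooth muscle. Its tested probe sets carry the suffix s, which in this array design marks probes that related transcripts can share. How much of each value comes from Myh11 itself is therefore uncertain. Probe set X16262_s_at had intensities of 1154, 666, 586 and 597 on EOM arrays 1 to 4. On the 8 TA_6h arrays it ranged from 8.92 to 339 with a median of 150.1. Every EOM array lay above every TA_6h array, and 5 of the 8 TA_6h arrays were above the floor. The mean was 751 ± 271 (SD, n = 4) in EOM and 150 ± 107 (n = 4) in TA_6h. On the floored log2 scale EOM was 5.66-fold higher (2.50 ± 0.46, SE, limma adjusted p = 0.00164). The size varied with the TA arrays used: 1.73 without the 5 low-ratio arrays and 3.28 with only those arrays as TA, called in each case.

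The other Myh11 probe sets were dim. S61948_s_at read 112, 158, 114 and 301 on the EOM arrays and 61.8 to 241 (median 98.0) on the TA_6h arrays. These ranges overlapped, and the difference of 0.66 ± 0.38 was not called (limma adjusted p = 0.176). After quantile normalization it was called (0.96, limma adjusted p = 0.0274). X16261_i_at was below 0 on all 4 EOM arrays (-273 to -53.3) and above the floor on 2 of the 12 TA arrays. It was left untested, and its muscle difference is not measurable here.

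Acta2 encodes the actin of smooth muscle, and its 3 probe sets gave different answers. The suffixes f and s in this array design mark probe sets whose probes can be shared by related transcripts, and i marks one with fewer probes than usual. The actins are close relatives in sequence, so how much of each value comes from Acta2 itself is uncertain. The probe sets of Cald1 and Cnn1 also carry the suffix s, and the sharing of their probes was not checked. X06801cds_i_at read 1412, 1497, 812 and 713 on the EOM arrays and 10.3 to 538 (median 27.9) on the TA_6h arrays, with no overlap. Only 3 of the 8 TA_6h arrays were above the floor. On the floored log2 scale EOM was 11.3-fold higher (3.50 ± 0.65, limma adjusted p = 0.0017). The floor sets that size, which was 4.50 at the 10th percentile and 2.56 at the 40th, called at each. The mean was 1108 ± 403 (SD, n = 4) in EOM and 126 ± 203 in TA_6h, a ratio of 8.78. TA_6h sample 1 was the high one, and without it the difference was 4.22.

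The probe set rc_AA900769_s_at read 5880, 4509, 3978 and 4069 on the EOM arrays and 1140 to 4413 (median 2022) on the TA_6h arrays. TA_6h arrays 4a and 4b, at 4413 and 4307, reached into the EOM range, and the other 6 TA_6h arrays lay below it. The mean was 4609 ± 878 (SD, n = 4) in EOM and 2411 ± 1491 in TA_6h, a ratio of 1.91. On the floored log2 scale EOM was 2.19-fold higher (1.13 ± 0.39, limma adjusted p = 0.0378). This call was among the least stable. It was lost in 13 of 28 alternatives, among them those without any 1 of the 4 EOM samples (adjusted p = 0.0576 to 0.0921), without TA_6h sample 1 (0.0959) or 2 (0.0967), or without either TA_1h sample (0.0519).

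X06801cds_f_at read 4590, 4838, 4480 and 3975 in EOM. On the TA_6h arrays it ran from 1596 to 12652 with a median of 3561, on both sides of EOM. The difference of 0.15 ± 0.40 was not called (limma adjusted p = 0.781). Its sign depended on the TA arrays: -0.57 without the 5 low-ratio arrays (limma adjusted p = 0.129) and 0.87 with only those as TA (0.0147).

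Tagln encodes transgelin, and its 2 probe sets moved in opposite directions. M83107_at read 1104, 872, 694 and 861 on the EOM arrays and 117 to 403 (median 334) on the TA_6h arrays. No TA_6h array reached the lowest EOM array. The mean was 883 ± 169 (SD, n = 4) in EOM and 304 ± 96.4 in TA_6h, a ratio of 2.91. On the floored log2 scale EOM was 3.05-fold higher (1.61 ± 0.31, limma adjusted p = 0.00185).

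M83107_g_at, which carries the name of the same sequence record, read 750, -72.7, -88.7 and 109 on EOM arrays 1 to 4 and 547 to 900 (median 716) on the TA_6h arrays. The sources used here hold no probe sequences, so whether both probe sets read only Tagln could not be checked. EOM array 1 lay inside the TA_6h range and the other 3 far below it. The difference was -2.50 ± 0.71 (limma adjusted p = 0.0157), and the ratio of the group means, 174 ± 394 (SD, n = 4) in EOM over 726 ± 110 in TA_6h, was 0.240. With 2 of the 4 EOM arrays at the floor, the floor sets its size, at -3.50 for the 10th percentile and -1.79 for the 40th. Without EOM sample 1 it was -3.35. The call was lost without the 5 low-ratio arrays (-2.33, limma adjusted p = 0.104) and with only those as TA (-2.66, 0.112).

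Cald1 encodes caldesmon, in a smooth muscle form and in a shorter form of other cells, and the table does not say which form the probe set reads. It read 875, 772, 708 and 514 on EOM arrays 1 to 4. On the TA_6h arrays it ran from 12.0 to 186 with a median of 64.1, and 5 of the 8 were above the floor. Every EOM array exceeded every TA array of either collection time. The mean was 717 ± 152 (SD, n = 4) in EOM and 78.9 ± 67.5 in TA_6h, a ratio of 9.09. On the floored log2 scale EOM was 8.61-fold higher (3.11 ± 0.36, limma adjusted p = 8.2e-05). With the floor at the 40th percentile the difference was 2.30. It stayed called in each of the 27 alternatives that tested it, with limma adjusted p up to 0.00101.

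Cnn1, calponin, is a late marker of mature smooth muscle. It was below 0 on all 4 EOM arrays, at -23.4, -189, -142 and -117. The TA_6h arrays read 46.8 to 250.1 (median 98.5), and 7 of the 8 were above the floor. On the floored log2 scale TA_6h was 1.93-fold higher (-0.95 ± 0.24 for EOM minus TA_6h, limma adjusted p = 0.00949). EOM has only a bound here, and Cnn1 passed the filter through the TA arrays alone. Its direction was therefore fixed in advance, and the p-value does not measure the spread of EOM. With the floor at the 40th percentile the difference shrank to -0.17 and was not called (limma adjusted p = 0.316), and with the floor at the 10th it grew to -2.93. Without the 5 low-ratio arrays it was not called (-0.82, limma adjusted p = 0.0547).

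Cspg4, the pericyte proteoglycan, was lower in EOM as well. It read -21.0, 60.6, -115 and 119 on the EOM arrays and 219 to 488 (median 265) on the TA_6h arrays. All 8 TA_6h arrays lay above all EOM arrays. The mean was 10.8 ± 102 (SD, n = 4) in EOM and 303 ± 59.9 in TA_6h, and the difference was -2.07 ± 0.26 (limma adjusted p = 0.000154). With 2 of the 4 EOM arrays at the floor, the floor sets its size, with -3.08 at the 10th percentile and -1.12 at the 40th, called at each.

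Of the 12 EOM intensities of the 3 probe sets called lower, 8 lie below 0 and the other 4 above the floor. The 5 probe sets called higher had every EOM array above the floor. The part of the summary step in this split was not tested.

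**Figure D2:**
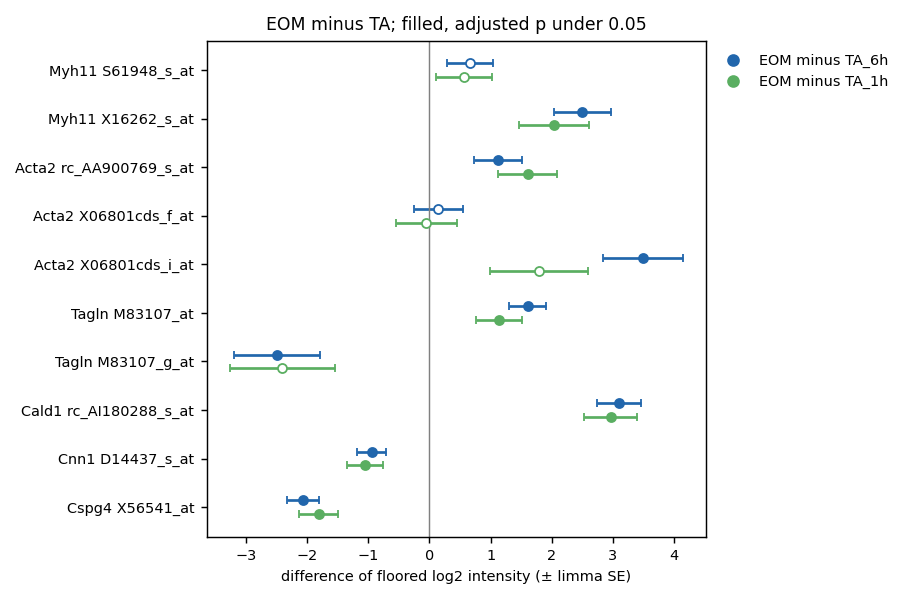
Differences of floored log2 intensity, EOM minus TA_6h (blue) and EOM minus TA_1h (green), for the 10 tested probe sets, with limma standard errors as bars and filled points at an adjusted p under 0.05. The 2 Tagln probe sets lie on opposite sides of 0, and the 3 Acta2 probe sets run from 0.15 to 3.50 against TA_6h.

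Whether the probe sets of 1 gene gave unequal muscle differences was tested on the log2 gap between the brightest probe set and each other one within a sample, for 4 pairs. The test was a two-sided exact permutation test of 4 EOM against 4 TA_6h samples, whose smallest possible p is 0.0286. For Tagln the gap was 2.78 ± 1.53 (SD, n = 4) in EOM and -1.33 ± 0.39 in TA_6h, a shift of 4.10 that separated all samples (exact p = 0.0286, 0.0571 after Benjamini-Hochberg adjustment over the 4 pairs). For Acta2 the shift between X06801cds_f_at and X06801cds_i_at was -3.35 (exact p = 0.0286, adjusted 0.0571). The shift between X06801cds_f_at and rc_AA900769_s_at was -0.98 (exact p = 0.371). For Myh11 it was 1.84 (exact p = 0.0571, adjusted 0.0762). No pair passed an adjusted p of 0.05. Without EOM sample 4 the Tagln pair, the Myh11 pair and the Acta2 pair of X06801cds_f_at and X06801cds_i_at each reached an adjusted exact p of 0.0381.

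The second comparison sets EOM against the TA arrays of the 1-hour collection. It shares its EOM samples with the first, so the values are given side by side and not as support for each other. Cald1 and Myh11 X16262_s_at were again higher in EOM, Acta2 rc_AA900769_s_at and Tagln M83107_at likewise, and Cspg4 and Cnn1 were lower. Of the 10 tested probe sets 6 were called, 4 higher and 2 lower, and without Cnn1 5 of 9, 4 higher and 1 lower. Over all tested probe sets 37.2% were called, 17.7% higher and 19.5% lower, and the median difference was 0.85 over the 10 and -0.09 over all.

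Cald1 read 131, 92.1, 97.3 and 9.96 on TA_1h arrays 1a, 1b, 2a and 2b, and EOM was higher by 2.96 ± 0.44 (limma adjusted p = 0.000589). Array 2b, one of the low-ratio arrays, was the low one. Myh11 X16262_s_at read 257, 213, 284 and 61.3 on the same arrays, again lowest on 2b. The difference was 2.04 ± 0.57 (limma adjusted p = 0.0185), and it was not called without TA_1h sample 2 (1.62, limma adjusted p = 0.155) or with the floor at the 10th percentile (2.04, 0.0681). Acta2 rc_AA900769_s_at read 1155, 1432, 1640 and 1827, all below EOM, a difference of 1.61 ± 0.48 (limma adjusted p = 0.0248). That call was lost without EOM sample 1 (0.0546), TA_1h sample 1 (0.157) or TA_1h sample 2 (0.0748).

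Tagln M83107_at read 275, 337, 363 and 729 on TA_1h arrays 1a, 1b, 2a and 2b, and array 2b reached into the EOM range. The difference of 1.14 ± 0.37 was called (limma adjusted p = 0.0364) but lost in 9 of 28 alternatives, among them without EOM sample 1, 2 or 4 (adjusted p = 0.0604 to 0.0789) or TA_1h sample 1 (0.279). Tagln M83107_g_at read 598, 638, 506 and 1062. Its difference of -2.40 ± 0.87 was not called (limma adjusted p = 0.0525), and it was called without EOM sample 1 (-3.26, 0.00014). For Tagln, too, the 2 probe sets stood on opposite sides of 0.

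Cspg4 read 218, 288, 370 and 152 on TA_1h arrays 1a, 1b, 2a and 2b, all above the 4 EOM arrays. The difference was -1.81 ± 0.32 (limma adjusted p = 0.00173). Cnn1 read 165, 112, 130 and 79.6, and on the floored log2 scale TA_1h was 2.08-fold higher than EOM (-1.06 ± 0.30, limma adjusted p = 0.0186). With every EOM array at the floor, the filter fixed the direction of Cnn1 here too. The Cnn1 call was lost without TA_1h sample 1 (-0.85, limma adjusted p = 0.147) and with the floor at the 40th percentile (-0.074, 0.754).

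The remaining probe sets were not called against TA_1h. Acta2 X06801cds_i_at read 548, 442, 620 and 11.4, with the 3 arrays 1a, 1b and 2a far above array 2b. The difference was 1.79 ± 0.80 (limma adjusted p = 0.107). It moved from 1.09 without TA_1h sample 2 to 2.49 without TA_1h sample 1, and without TA_6h sample 1 in the shared fit it was called (1.79, 0.011). It was called in 5 of 27 alternatives, among them the one with number as a replicate block (2.39, 0.0178). Acta2 X06801cds_f_at read 5819, 4621, 6417 and 2622 (-0.05 ± 0.49, limma adjusted p = 0.954), and Myh11 S61948_s_at read 106, 171, 35.8 and 123 (0.57 ± 0.46, 0.369).

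Between the collection times of TA none of the 10 probe sets was called, and of all 7640 tested 0% were called by limma, with 424 at an unadjusted p under 0.05. The differences, TA_6h minus TA_1h, ran from -1.71 for Acta2 X06801cds_i_at (limma adjusted p = 0.89) to 0.48 for Acta2 rc_AA900769_s_at. Over 28 alternatives none of the 273 values was called, and 34 changed sign. The standard errors of these differences, with 2 TA_1h samples, were 0.30 to 0.87 (log2). The spread between the 2 arrays of 1 numbered TA sample was large for some: the 6 pairs differed by a median of 0.16 to 0.68 (log2) over the tested probe sets, and at most by 3.46, for X06801cds_i_at in TA_1h sample 2.

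Within TA the low-ratio arrays stood apart in Acta2 and Cald1. Acta2 rc_AA900769_s_at was at 1827 to 4413 (median 2919) on those 5 arrays and at 1140 to 1640 (median 1288) on the other 7. The other Acta2 probe sets went the opposite way. X06801cds_f_at was at 1596 to 3185 on the 5 and 3938 to 12652 on the 7, and X06801cds_i_at at 10.3 to 21.6 and 34.3 to 620. Cald1 was at 9.96 to 58.3 on the 5 and 69.9 to 186 on the 7. In these 4 of the 10 tested probe sets the 5 and the 7 arrays did not overlap, as in 13.4% of all tested probe sets. The other 6, among them Myh11 X16262_s_at with 8.92 to 169 against 131 to 339, overlapped.

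**Figure D3:**
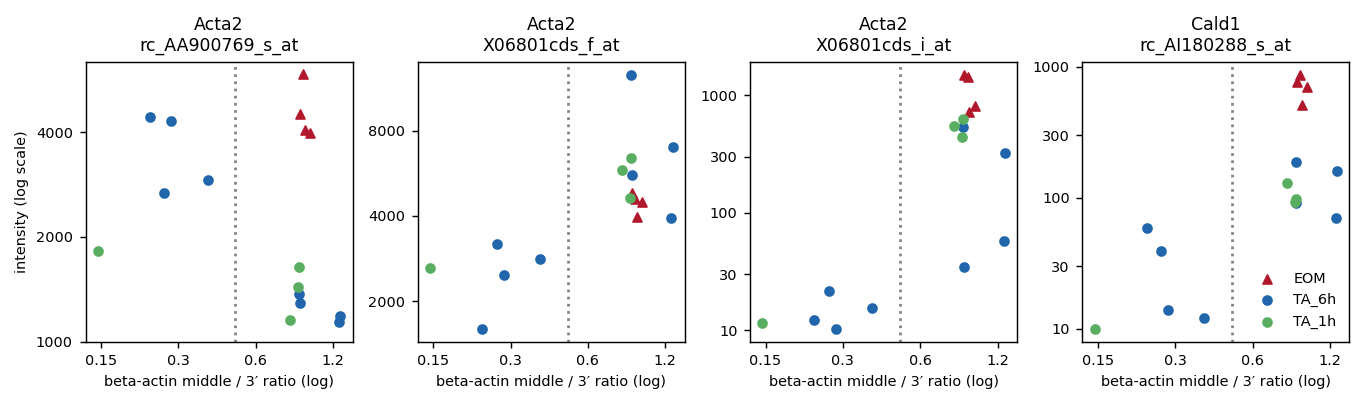
Intensity (log axis) of the 3 Acta2 probe sets and Cald1 on each array against the middle over 3′ ratio of the beta-actin control (log axis), for EOM (triangles), TA_6h and TA_1h (circles). Left of the dotted line, at a ratio of 0.5, are the 5 TA arrays of low ratio: rc_AA900769_s_at is higher there than on the other TA arrays and the remaining 3 probe sets are lower.

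The EOM differences were refitted within each set of TA arrays, and the set without the low-ratio arrays keeps the 4 arrays of low Gapdh ratio. Acta2 rc_AA900769_s_at was 1.87 higher in EOM against TA_6h without the 5 arrays (limma adjusted p = 0.000374) and 0.38 with only those arrays (0.261). Acta2 X06801cds_i_at was 2.78 and 4.22 higher, Cald1 2.58 and 3.63, and Tagln M83107_at 1.98 and 1.24, called in each case. Cspg4 was at -2.27 and -1.87, called in each. Against TA_1h, where the low set is the single array 2b, Tagln M83107_at was at 0.26 (limma adjusted p = 0.492) and Cspg4 at -1.13 (0.114) with only that array, and without it X06801cds_i_at was at 0.93 (0.349).

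Other markers of the vessel wall were read from a list of 27 genes, of which 16 were tested. Against TA_6h, 7 were higher in EOM and 3 lower (limma adjusted p under 0.05), with a median of 0.37, and against TA_1h 7 were higher and 1 lower. Over all tested probe sets 47.2% were called against TA_6h (21.9% higher, 25.3% lower) and 37.2% against TA_1h (17.7% higher, 19.5% lower). Adra1b, counted as lower in each comparison, was at the floor on all 4 EOM arrays. It passed the filter through the TA arrays alone, so its direction was fixed in advance. Vim, the intermediate filament of many mesenchymal cells, was 2.02 ± 0.17 higher. The myosin light chain Myl6 was 1.24 ± 0.18 higher. Pericyte markers of the list did not share a direction. Abcc9, a subunit of the potassium channel of pericytes and vascular muscle, was 1.51 ± 0.26 higher (limma adjusted p = 0.00101), but only 1 of its 3 tested probe sets was called. Anpep, a peptidase of the pericyte surface, was 0.51 ± 0.15 higher (limma adjusted p = 0.0192), with 2 of its 3 tested probe sets called higher. Kcnj8, the partner of Abcc9 in that channel, was not called (0.30 ± 0.36, limma adjusted p = 0.512). Pdgfrb, the growth factor receptor of pericytes, was lower (-1.08 ± 0.37, limma adjusted p = 0.0349), with 2 of the 4 EOM arrays above the floor. The smooth muscle light chain Myl9 (-0.21 ± 0.40) and the enteric actin Actg2 (0.43 ± 0.32) were not called.

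Genes of smooth muscle contraction and its control were 17 tested of 26 listed, 7 higher and 1 lower in EOM than in TA_6h, with a median of 0.89, and 5 higher and 1 lower than in TA_1h. The 8 called against TA_6h are a share close to the 47.2% of all probe sets, so the count does not set this list apart, and its genes are given as single values. Csrp1, a partner of actin and serum response factor, was 1.79 ± 0.19 higher. Both subunits of the nitric oxide receptor were higher, Gucy1b1 by 1.64 ± 0.22 and Gucy1a1 by 1.27 ± 0.42, as was Pde5a, the enzyme that breaks down its product cyclic GMP, by 1.47 ± 0.22. Ppp1r12a, the targeting subunit of myosin phosphatase, was lower (-0.86 ± 0.21, limma adjusted p = 0.00678), but only 1 of its 3 tested probe sets was called. Several genes of this list, such as Tpm1, Tpm2 and Atp2a2, are also made by skeletal muscle fibres.

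Lists of other cell types of the tissue were counted in the same way, and their shares stand beside the 47.2% of all probe sets that were called. Of 15 tested fibroblast and matrix genes 8 were higher in EOM than in TA_6h and 1 lower, led by Lum (4.42 ± 0.26) and Fbln5 (2.73 ± 0.19). Fn1, counted as higher, and Bgn, counted as lower, each had 1 probe set called higher and 1 lower. Of 8 Schwann cell and nerve genes 6 were higher and 1 lower, led by S100b (3.17 ± 0.26) and Mbp (3.09 ± 0.17). Only 1 of the 2 tested S100b probe sets was called. Mag and Snap25, counted as higher, each had 1 probe set called higher and 1 lower. Of 13 endothelial genes 3 were higher and 3 lower, with a median of 0.07. The 3 higher endothelial genes were Vcam1 (1.71 ± 0.49), Icam1 (1.06 ± 0.34) and Vwf (0.51 ± 0.16). The 3 lower were Thbd (-1.07 ± 0.22), Icam2 and Sele. Thbd had 1 of its 2 tested probe sets called higher and 1 lower. Among those not called were Cav1 (2.86 ± 1.11, limma adjusted p = 0.0568), Pecam1 (0.51 ± 0.40), Kdr (-0.31 ± 0.24) and Flt1 (0.07 ± 0.18). Of 11 skeletal muscle genes 2 were higher and 4 lower. Summed intensities add probe sets of unequal brightness, so the brightest genes set them. The sum of the nerve list was 10427 to 14415 in EOM and 2682 to 2940 in TA_6h. That of the fibroblast list was 94313 to 113298 and 70245 to 95742, and that of the endothelial list was 5575 to 7107 and 4058 to 6441. Among the defining markers, Sox10 was at the floor on every TA array, and Icam2, Sele and Ncam1 were at the floor on every EOM array. Each of these passed the filter through 1 muscle alone, so its direction in the counts above was fixed in advance. The part of these cell types in the marker differences was not tested.

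**Figure D4:**
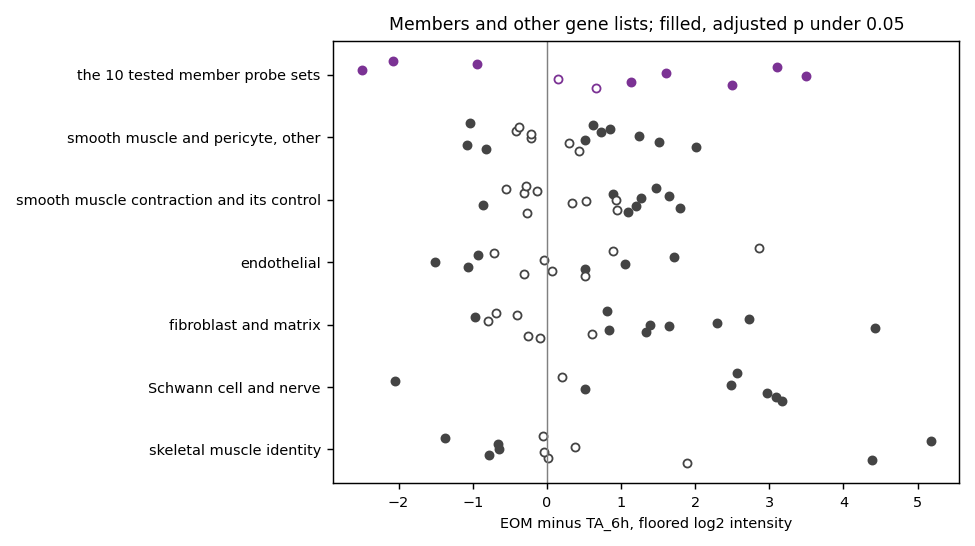
EOM minus TA_6h differences of floored log2 intensity for the 10 tested marker probe sets and, 1 point per gene, for 6 other lists, with filled points at a limma adjusted p under 0.05. The endothelial genes, with a median of 0.07, and the 10 marker probe sets lie on both sides of 0. The Schwann cell and nerve genes have a median of 2.52.

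Genes whose profile over the 10 numbered samples was most like that of each marker were ranked among 4316 genes by the root mean square difference of centred log2 values, through the marker's brightest probe set. This is a description with no test. Nearest to Cald1 was Dcn, the matrix proteoglycan decorin, at 0.32, through another of its probe sets than the brightest, and then Gpx3 at 0.34 and Cd9 at 0.35. Nearest to Myh11 were Sdc2 (0.28), Tfpi (0.34) and Cd48 (0.34), and nearest to Tagln Hmgb1 (0.30), Cox8a (0.31) and Pus3 (0.32). Nearest to Acta2, through X06801cds_f_at, which did not differ by a called amount, were Chrnb1 (0.18), Top1 (0.21) and Ppp2cb (0.21). Nearest to Cspg4 were C1qc (0.23), Stc1 (0.23) and Cnga3 (0.27). Nearest to Cnn1 were Hrk (0.12), Mlst8 (0.17) and Grik3 (0.18), which like Cnn1 lie at the floor on all EOM arrays.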

How the data were processed

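The deposited values are linear intensities, 1 per probe set and array of 8799. The sources used here do not give how the authors summarised probes. Per the values, the authors' deposited intensities had a common trimmed mean (801.1 to 801.8 without the highest and lowest 2%) and were used as deposited. Values under the 25th percentile of all intensities (56.5) were raised to it, log2 was taken, and tests were run on the 7640 probe sets, array controls aside, that exceeded it on 4 arrays or more. Probe sets with 1 symbol in GEO's platform annotation numbered 7018, 308 had several and 1473 were unlisted.

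Tests used lmFit and eBayes of limma 3.58.1 (R 4.3.3; 1 fit of the 3 groups, 7 residual and 2.83 prior degrees of freedom), with Benjamini-Hochberg adjustment over all tested probe sets. On simulated EOM and TA_6h data (10 runs, 200 of 7640 probe sets changed) this recovered 38.4% of 2-fold and 81.4% of 4-fold changes, with 5.48% false calls. Errors of differences are limma standard errors, errors of intensities SDs over numbered samples, and the number of arrays limits precision. List genes are represented by their brightest probe set. The text names every marker probe set, up to 4 called genes per list with the largest differences, the 3 nearest genes per marker and list genes a result turns on. Pecam1, Kdr, Flt1, Myl9, Actg2, Tnnt3, Anpep, Kcnj8, Ppp1r12a, Icam2, Sele, Ncam1 and Adra1b were named for their role or their place at the floor, after their values were seen. Vwf and Cav1 were named likewise, for the spread of the endothelial list. Markers and lists were chosen with earlier results of these data known. Alternatives were other floors, filters, normalizations, variance models and sample units, and leaving out samples. Figures used matplotlib 3.10.9 in Python 3.11.15.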

Additional observations from a re-analysis of the deposited data

Results flagged for a closer look

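In each group of 4 numbered samples the highest and lowest sample were compared with the others for all 11 probe sets, and a sample stood apart where its gap to the nearest other as a share of the group's range exceeded Dixon's critical value. Chance gives this in about 1 in 20 groups. Acta2 X06801cds_i_at had such a sample in TA_6h, where sample 1 was at 8.70 (log2) and the other 3 at 5.82 to 5.83, a gap of 0.998 of the range. The other 3 samples lie at or next to the floor, which narrows their spread. Cspg4 had such a sample in EOM, where sample 4 was at 6.90 and the others at 5.82 to 5.92, a gap of 0.905 of the range, again next to the floor.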

How the results depend on the processing

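Over 28 alternatives, 486 of 546 marker differences between EOM and TA kept their direction and their side of the threshold, 37 lost their call, 14 gained one and 9 changed sign, all of these for Acta2 X06801cds_f_at. Against TA_6h (0.15) that probe set was at -0.093 with the letterless TA_6h arrays apart, -0.57 without the 5 low-ratio arrays, -0.53 with that ratio as a batch term, and -0.19 to 0.56 on leaving out 1 sample. Against TA_1h (-0.05) it was at 0.052 after scaling to the same median, 0.35 with number as a replicate block, 0.77 with only the low-ratio arrays, and -0.22 to 0.12 on leaving out 1 sample. None of these values against TA_1h was called. With a filter that asks for a value above the floor on each of the 16 arrays, 1927 probe sets were called against TA_6h (58.95% higher in EOM, against 46.3% at 3606) and 1512 against TA_1h (61.05%, against 47.6% at 2843), and 3 marker probe sets were left, 2 of them called in each comparison. That filter removes dim probe sets, among them those where EOM lies at the floor. Leaving out 1 sample gave 1861 to 3045 calls against TA_1h and 3 to 7 called marker probe sets (6 with all samples). The fewest came without TA_1h sample 1, which leaves 1 TA_1h sample, assumed to vary like the other groups; without TA_1h sample 2 there were 1926 and 4. Between TA_6h and TA_1h, where limma called 0, it called 8 probe sets with no filter, 1 with the 16-array filter, with each array as a sample and with the letterless arrays apart, 0 to 1 on leaving out 1 sample (1 without TA_6h sample 3 or 4), 45 without the low-ratio arrays, 681 with only those and 57 with the batch term. The cause was not tested. The shifts between probe sets of 1 gene ran, on leaving out 1 sample, from 3.71 to 4.84 for Tagln, 1.45 to 2.24 for Myh11, and -3.66 to -3.04 and -1.68 to -0.34 for Acta2. Same-numbered EOM and TA_6h samples correlated at 0.021 to 0.105 and differently numbered ones at -0.085 to 0.054. Numbers were not taken to pair samples, though correlations over so few samples cannot exclude a pairing. With number as a replicate block 3507 probe sets were called against TA_6h and 2540 against TA_1h, with 7 and 5 marker probe sets, and the block ended the Acta2 rc_AA900769_s_at calls (limma adjusted p = 0.0543 and 0.0961) and that of Tagln M83107_at against TA_1h (0.122), while Acta2 X06801cds_i_at became called against TA_1h (2.39, 0.0178). Counts of called list genes stayed within 1.5 times in 164 of 168 cases. Small differences in dim probe sets such as Cnn1, Cspg4 and Myh11 S61948_s_at are limited by signal near the floor.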

Other observations

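A further 4 probe sets are listed for Acta2 and the cardiac actin Actc1 together and were left out of the marker set. Their mean intensities in EOM and TA_6h (SD, n = 4 each) were 494 ± 93.9 and 132 ± 66.4 for rc_AI104567_at, 23200 ± 2475 and 13507 ± 9815 for rc_AI104567_g_at, 12685 ± 1900.1 and 7896 ± 4908 for X80130cds_f_at, and 9519 ± 3849 and 7496 ± 6707 for X80130cds_i_at. On rc_AI104567_at every EOM array (392 to 576) lay above every TA array (27.8 to 294). On the other 3 the EOM and TA_6h arrays overlapped.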
